A study of Mus musculus with 12 samples.

Results

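Cathepsins are the proteases of the lysosome, and cystatin C is the secreted protein that inhibits many of them. They were followed here in GFP(+) cells sorted from mouse liver before and after bile duct ligation (BDL), a surgical block of bile flow that injures the liver. The 10 genes were *Ctsa*, *Ctsb*, *Ctsc*, *Ctsd*, *Ctsh*, *Ctsk*, *Ctsl*, *Ctss*, *Ctsz* and *Cst3*. They were chosen by symbol from the 16969 gene symbols of the deposited table, where each was listed once as a protein-coding gene. All 10 passed the filter on low values, a sum of at least 10 normalized counts over the libraries, which kept 12889 genes.

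Adult C57BL/6 mice of the genotype Prom1CreERT2-nLacZ/+;Rosa26Lsl-GFP/+ were used in all groups, the *Prom1* allele from a C57BL/6N and the reporter from a C57BL/6J background. In these mice tamoxifen lets Cre, made under the control of *Prom1*, switch on GFP in cells that express *Prom1* at that time, and their progeny keep the label. All mice received tamoxifen 7 days before surgery. GFP(+) cells were collected at day 0, which the labels call sham, and at 3 and 14 days after BDL, from the nonparenchymal fraction with a GFP gate set on wild-type liver. The labels name 3 day 0, 3 BDL day 3 and 6 BDL day 14 libraries, and the means rest on 3, 3 and 4 of them, since 2 BDL day 14 libraries with too few reads were left out. No sham library was taken at 3 or 14 days. Ligation therefore cannot be told apart from time since tamoxifen or surgery. The paper reports both sexes in every group, in proportions that differed between the groups.

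The table gives each gene's mean per group, and across the 10 libraries its mean, its geometric mean and the count of its highest library. It gives no other value of a single library, and the depth of the libraries is unknown, so no replicate test or counting interval could be computed. The values do limit the spread. If all libraries of a group were equal to their mean, the geometric mean would follow from the group means, and the amount by which it falls short measures the spread within groups. From this shortfall a coefficient of variation (CV) pooled over the groups and the lowest and highest value that any library could have had were worked out, and for some genes an overlap between the libraries of the groups was arithmetically impossible. "No overlap" below means this. Where an overlap was possible, the libraries may still have been separate. A gene is called higher or lower where its group means differed by more than 1.5-fold.

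Cathepsins are made as inactive precursors, tagged with mannose 6-phosphate in the Golgi apparatus, carried to the lysosome and activated there by removal of a propeptide. Cathepsins B, C, H, K, L, S and Z are cysteine proteases, cathepsin D is an aspartic protease and cathepsin A is a serine carboxypeptidase. They break down proteins taken up or recycled by the cell, and in the liver they are abundant in macrophages, while hepatocytes and bile duct cells have them too. Cystatin C binds the active site of cysteine cathepsins and does not inhibit cathepsin D or cathepsin A.

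After BDL most of these genes stood at a higher level. At BDL day 3 against day 0, 8 of the 10 were higher by more than 1.5-fold and 1, *Ctsk*, was lower, while over all genes kept 19.2% were higher and 29.2% were lower. There was no overlap for 5 of the 8 (*Ctsa*, *Ctsb*, *Ctsd*, *Ctsh* and *Ctsz*), against 3.31% of all genes. The median log2 ratio was 0.79 for the 10 genes and -0.02 for all genes. At BDL day 14 against day 0, 6 were higher and 0 lower, against 21.2% and 28.8% of all genes, and there was no overlap for 5 of the 6 (*Ctsb*, *Ctsd*, *Ctsh*, *Ctsl* and *Ctss*), against 3.20% of all genes. The median log2 ratio was 0.90, with -0.04 for all genes. Between BDL day 14 and BDL day 3, *Ctsk* was higher and *Ctsc* lower, against 21.2% and 19.7% of all genes, and an overlap was possible for all 10, where 4.31% of all genes were past 1.5-fold without one. Both comparisons with day 0 share the same 3 day 0 libraries.

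Highly expressed genes behaved differently from the table as a whole, and 9 of the 10 genes (all but *Ctsk*) are among them. Among the 902 genes with an overall mean of at least 100 normalized counts, a limit set after the data were seen, 39.6% were higher at BDL day 3 and 32.7% at BDL day 14 than at day 0. A higher level after BDL with no overlap, whatever the fold, was found for 14.7% and 11.4% of these genes. Genes with a lower level and no overlap were not counted in these shares. The median log2 ratios of the 902 genes were 0.45 and 0.31.

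**Figure D1:**
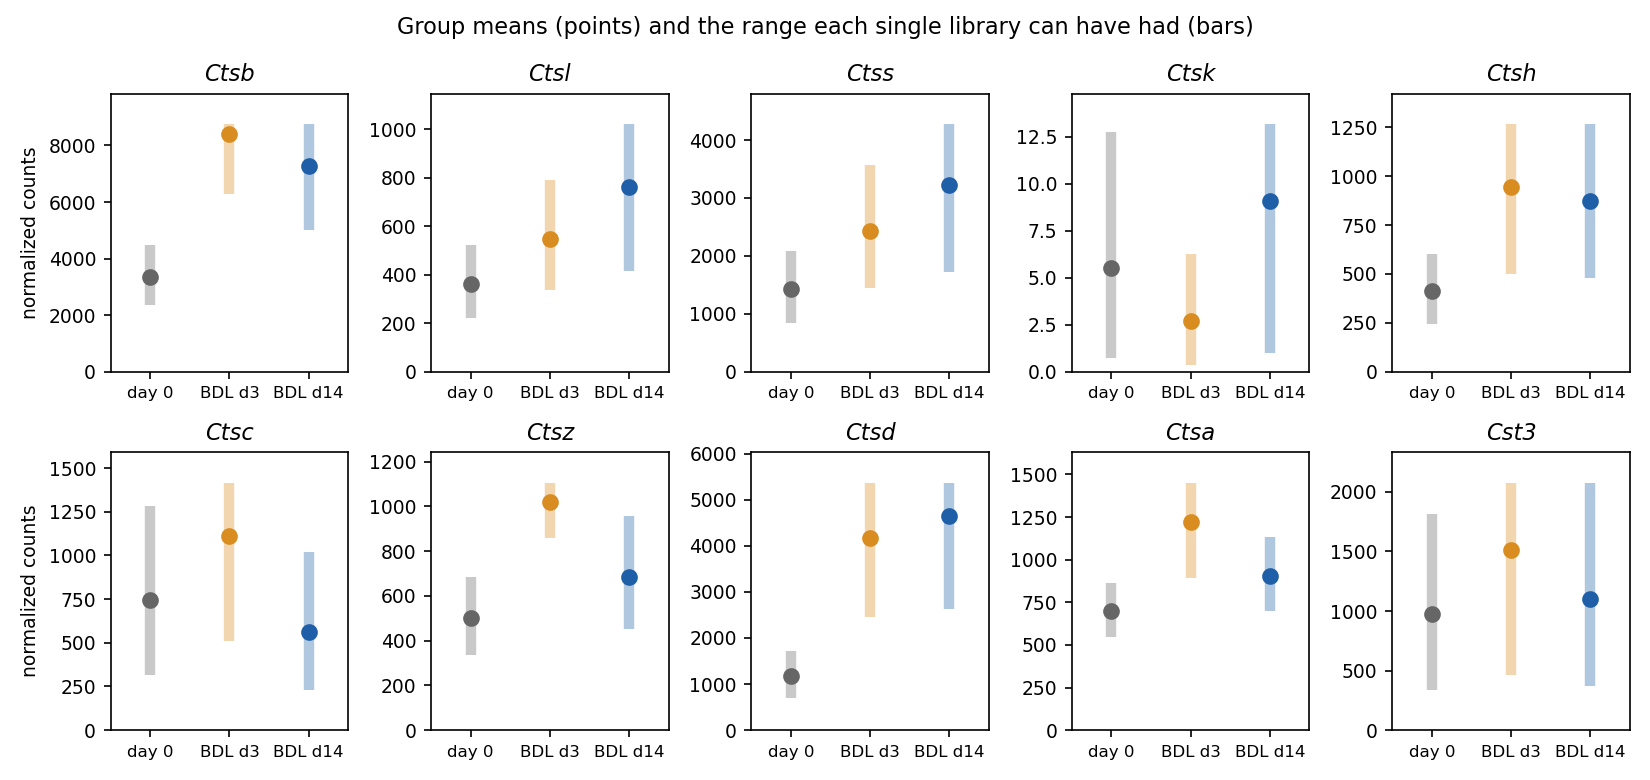
Group means in normalized counts (points, vertical axis from 0, scaled separately for each gene) and the range that any single library of the group can have had (bars), for day 0, BDL day 3 and BDL day 14. The day 0 bars of *Ctsb* and *Ctsd* end below the bars of both BDL groups, whereas the 3 bars of *Ctsc* and of *Cst3* overlap widely.

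*Ctsd* encodes cathepsin D, the main aspartic protease of the lysosome, and it had the largest ratio to day 0 of the 10 genes at both times. It lies at chr7:142375911-142388038 on the minus strand (GRCm38). Its mean was 1170 normalized counts at day 0, against 4180 and 4650 at BDL days 3 and 14, or 3.57-fold and 3.97-fold the day 0 level (log2 ratios 1.84 and 1.99), with a pooled CV of 18.9%. A day 0 library could have had at most 1715 counts, and a library could have had no fewer than 2447 and 2635 at BDL days 3 and 14. Every library of either BDL group was thus above every day 0 library. The BDL groups differed by 0.15 on the log2 scale and could overlap, while quantile normalization of the group means gave 1.28 for this comparison. In GENCODE M21 the exons of *Ctsd* share 670 bases with *Gm49369* on the same strand, which the table does not list. By mean level *Ctsd* went from rank 58 among the genes at day 0 to ranks 27 and 11 at BDL days 3 and 14.

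The promoter of *Ctsd* holds the letters TCACGTGA, the palindrome at the core of the motif bound by TFEB and related factors that control lysosomal genes. It is shown with the corresponding stretch at a start site of *Ctsa*, since these were the only genes of the 10 in whose available promoters the motif was found. The sequences were taken from RefSeq windows of 250 bases before to 50 bases after each start site (GRCm38.p6), which exist for 8 of the 10 genes (9 windows, none for *Ctsb* and *Ctsh*). The *Ctsd* stretch is chr7:142387873-142387972 on the minus strand, and the *Ctsa* stretch is chr2:164833703-164833802 on the plus strand. Both start sites lie inside the annotated gene, 211 bases from its 5′ end in *Ctsd* and 900 in *Ctsa*, so both stretches do too. Both are written 5′ to 3′ on the strand of the gene with the motif in capitals.
Ctsd: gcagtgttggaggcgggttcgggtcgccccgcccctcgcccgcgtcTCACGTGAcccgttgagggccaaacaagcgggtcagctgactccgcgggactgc
Ctsa: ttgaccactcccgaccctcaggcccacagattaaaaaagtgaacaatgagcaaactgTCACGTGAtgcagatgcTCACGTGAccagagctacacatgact
The motif begins 99 bases before the start site in *Ctsd*, and in *Ctsa* 13 bases before it and again just after it. Of all 32851 promoter windows, 0.974% hold these letters, and 7.15% hold the shorter core CACGTG that lies within them. The shorter core was found in 3 of the 8 genes (*Ctsa*, *Ctsd* and *Ctsl*). The motif reads the same on both strands, and its presence is a description of the sequence.

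*Ctsb*, which encodes cathepsin B, a cysteine protease with both endopeptidase and peptidyl-dipeptidase activity, had the highest counts of the 10 genes. It lies at chr14:63122462-63145923 on the plus strand. Its mean was 3350 normalized counts at day 0, against 8410 and 7290 at BDL days 3 and 14 (log2 ratios to day 0 of 1.33 and 1.12), and its pooled CV was 13.1%. A day 0 library could have had at most 4469 counts, below the lowest possible values of 6268 and 5013 at BDL days 3 and 14, so there was no overlap at either time. By mean level it held rank 26 at day 0, and ranks 9 and 7 at BDL days 3 and 14. Exons of *Ctsb* share 774 bases with those of *Fdft1* on the other strand, whose means were 19.4, 7.69 and 15.8 normalized counts. Whether reads were counted by strand is not given in the sources used here.

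*Ctsh* encodes cathepsin H, an aminopeptidase. It lies at chr9:90054152-90076089 on the plus strand and had means of 411, 944 and 875 normalized counts (log2 ratios to day 0 of 1.20 and 1.09), with a pooled CV of 24.3%. Taken one at a time, a day 0 library could have had up to 601 counts and a BDL day 3 library as few as 497. Both could not hold in the same set of libraries, so there was no overlap with day 0 at BDL day 3, and likewise at BDL day 14.

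*Ctss* and *Ctsl* had their highest means at BDL day 14. *Ctss* encodes cathepsin S, the protease that trims the invariant chain of MHC class II in antigen-presenting cells, and lies at chr3:95526786-95556403 on the plus strand. Its means were 1420 normalized counts at day 0, with 2430 and 3230 at BDL days 3 and 14 (log2 ratios to day 0 of 0.78 and 1.19), with a pooled CV of 21.6%. The possible day 0 libraries ran from 846 to 2081 counts, those of BDL day 3 from 1452 to 3568 and those of BDL day 14 from 1727 to 4270. An overlap with day 0 was possible at BDL day 3 and impossible at BDL day 14. *Ctsl* encodes cathepsin L, a broadly acting endopeptidase, and lies at chr13:64359337-64370890 on the minus strand. Its means were 363, 549 and 762 normalized counts (log2 ratios of 0.60 and 1.07) with a pooled CV of 22.7%, and it too had no overlap with day 0 at BDL day 14 alone of the 2 BDL times. The exons of *Ctsl* share 1742 bases with the antisense gene *Gm47123* and 395 with the pseudogene *Gm49230*, neither of them listed in the table. For both *Ctss* and *Ctsl* the highest of the 10 libraries, at 4270 counts for *Ctss* and 1020 for *Ctsl*, can only have been a BDL day 14 library. The BDL groups differed by 0.41 for *Ctss* and 0.47 for *Ctsl* on the log2 scale, under 1.5-fold in both, but by 1.06 and 0.61 after quantile normalization of the group means, past that limit.

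*Ctsa* and *Ctsz* had their highest means at BDL day 3. *Ctsa* encodes cathepsin A, which also protects beta-galactosidase and neuraminidase 1 within a lysosomal complex, and lies at chr2:164832873-164841032 on the plus strand. Its means were 699, 1220 and 904 normalized counts (log2 ratios to day 0 of 0.80 and 0.37) and its pooled CV was 10.6%, the lowest of the 10 genes. The possible libraries ran from 546 to 863 counts at day 0 and from 895 to 1450 at BDL day 3, so there was no overlap, whereas the BDL day 14 range of 697 to 1134 reached into both. Its exons share 495 bases with those of *Pltp* on the other strand, which had means of 609, 1110 and 279. *Ctsz*, for the carboxypeptidase cathepsin Z, lies at chr2:174427493-174439039 on the minus strand and had means of 502, 1020 and 684 normalized counts (log2 ratios of 1.02 and 0.45), with a pooled CV of 14.0%. Its BDL day 3 libraries lay between 860 and 1105 counts, above the day 0 maximum of 685. Its BDL day 14 libraries, between 452 and 958, could overlap with day 0.

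*Ctsc* was the cathepsin with the lowest mean at BDL day 14 relative to BDL day 3. It encodes cathepsin C, the dipeptidyl peptidase that activates the serine proteases of neutrophil and lymphocyte granules, and lies at chr7:88278085-88310888 on the plus strand. Its means were 745 normalized counts at day 0, with 1110 and 563 at BDL days 3 and 14, with a pooled CV of 32.8%. The BDL day 3 mean was 1.49-fold the day 0 mean, just inside the 1.5-fold limit, where *Ctsl* at 1.51-fold and *Cst3* at 1.54-fold were just past it. BDL day 14 stood 1.97-fold below BDL day 3 (log2 ratio -0.98). The possible libraries, from 315 to 1282 counts at day 0 and from 509 to 1415 and 230 to 1021 at BDL days 3 and 14, overlapped in every pair of groups.

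The promoters of *Ctss* and *Ctsc* hold the letters GAGGAAGT, the core bound by PU.1, a transcription factor of myeloid cells. They are shown because these were the only members with a match among the 8 with a promoter window. The *Ctss* stretch is chr3:95526716-95526815 and the *Ctsc* stretch is chr7:88277888-88277987, both on the plus strand in GRCm38.p6. They are written 5′ to 3′ on that strand, so the capitals ACTTCCTC are the reverse complement of the motif.
Ctss: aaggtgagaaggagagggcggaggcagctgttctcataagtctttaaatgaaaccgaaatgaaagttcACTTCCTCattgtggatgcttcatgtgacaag
Ctsc: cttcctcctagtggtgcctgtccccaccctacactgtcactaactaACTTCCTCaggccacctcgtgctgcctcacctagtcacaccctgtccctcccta
The match begins 2 bases before the start site in *Ctss* and 151 bases before it in *Ctsc*. Among all promoter windows 3.20% hold this motif on either strand.

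*Ctsk* stood apart from the others in level. It encodes cathepsin K, the collagen-degrading protease best known from osteoclasts, and lies at chr3:95499256-95509362 on the plus strand, next to *Ctss*. Its means were 5.49 normalized counts at day 0, with 2.70 and 9.09 at BDL days 3 and 14. The log2 ratios to day 0 were -1.02 and 0.73, and BDL day 14 was 3.37-fold BDL day 3. Its pooled CV was 63.2%, the largest of the 10 genes, and the possible libraries of all groups overlapped (0.719 to 12.7 counts at day 0, then 0.354 to 6.26 and 1.02 to 13.2 after BDL). The highest library, at 13.1 counts, can only have been one of BDL day 14. Without it the log2 ratio of BDL day 14 to day 0 was 0.50, under the limit of 1.5-fold.

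*Cst3*, the gene for cystatin C, lies at chr2:148871722-148875692 on the minus strand. Its mean was 979 normalized counts at day 0, with 1510 and 1100 at BDL days 3 and 14 (log2 ratios to day 0 of 0.63 and 0.17). With a pooled CV of 38.2% the libraries of the 3 groups could overlap throughout, from 339 to 1814 counts at day 0 and from 466 to 2075 and 368 to 2075 at BDL days 3 and 14. The highest library, at 2070 counts, belonged to one of the BDL groups. If it was a BDL day 3 library, the log2 ratio of BDL day 3 to day 0 was 0.33 without it, under the limit. If it was a BDL day 14 library, the log2 ratio of that group was -0.33 without it.

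**Figure D2:**
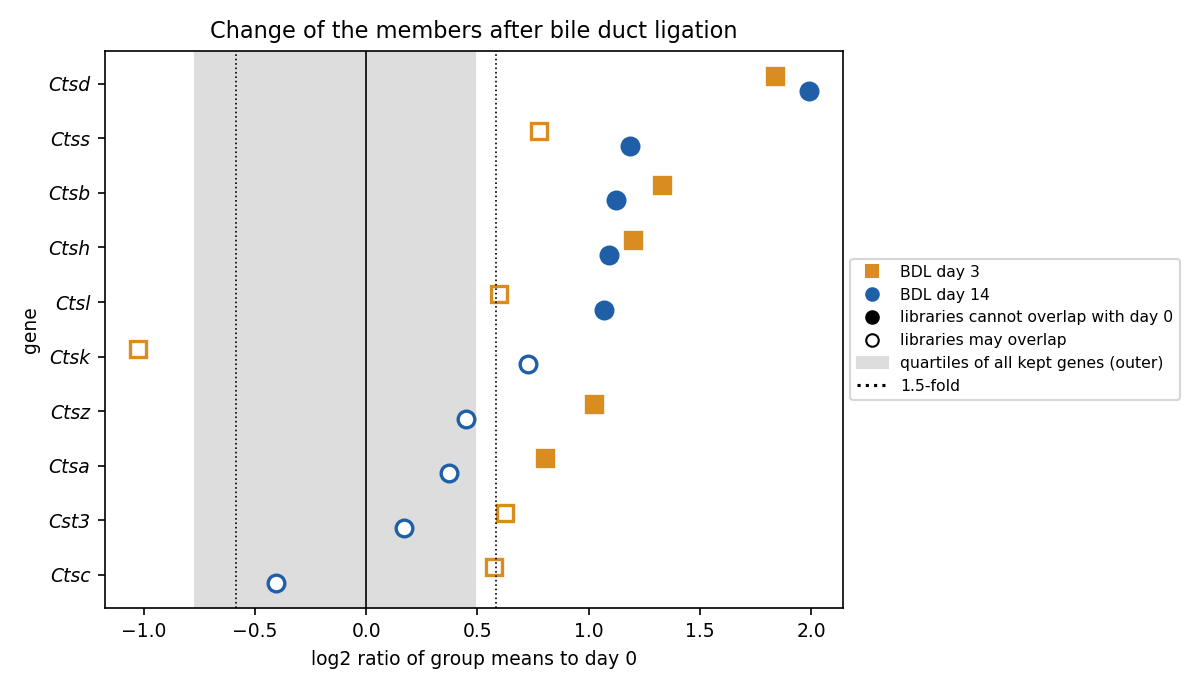
Log2 ratio of the group mean to day 0 (horizontal axis) for each of the 10 genes, at BDL day 3 (squares) and BDL day 14 (circles), with filled symbols where no library can overlap with day 0. The dotted lines mark 1.5-fold and the grey band holds the quartiles of all genes kept, taking the outer of the 2 comparisons. *Ctsd* lies farthest to the right at 1.84 and 1.99, and *Ctsk* at BDL day 3 is the only symbol beyond the left dotted line, at -1.02.

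The proteases and their inhibitor did not keep the same proportion. The 7 cysteine cathepsins summed to 6796 normalized counts at day 0, with 14466 and 13413 at BDL days 3 and 14. Divided by *Cst3*, the sums came to 6.94, 9.58 and 12.2, and *Ctsb* alone over *Cst3* to 3.42, 5.57 and 6.63. These ratios of group means carry the spread of *Cst3* (pooled CV of 38.2%), and no interval between libraries could be given for them. Within the cathepsins, *Ctsd* over *Ctsb* went from 0.349 to 0.497 and 0.638, and *Ctss* over *Ctsc* from 1.91 to 2.19 and 5.74. All 10 genes together took 1.05% of the summed signal of the table at day 0, with 2.53% and 2.73% at BDL days 3 and 14. Of this sum *Ctsd* held 12.1%, 19.6% and 23.2%, and *Cst3* 10.2%, 7.06% and 5.48%. The ratios, sums and shares given here use counts not divided by transcript length. Their changes between groups can be read, but not which gene had more transcripts. Per kb of transcript, *Ctsb* was below *Cst3* at day 0 (706 against 1138 normalized counts). *Ctsd* was above *Ctsb* per kb at BDL day 3 (1965 against 1773) and BDL day 14 (2186 against 1537).

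To compare genes with each other, levels were divided by the length of the longest well-supported coding transcript. Per kb, *Cst3* ranked first at day 0 with 1138 normalized counts, ahead of *Ctss* (1048), *Ctsb* (706) and *Ctsd* (550). At BDL day 3 the same genes stood close together, with *Ctsd* at 1965 per kb, *Ctss* at 1793, *Ctsb* at 1773 and *Cst3* at 1756. At BDL day 14 the order was *Ctss* at 2384 per kb, *Ctsd* at 2186, *Ctsb* at 1537 and *Cst3* at 1279. The differences between *Cst3* and *Ctss* at day 0, between these 4 genes at BDL day 3, and between *Ctss* and *Ctsd* at BDL day 14, were smaller than the pooled CVs of the genes. *Ctsk* was last in every group, with 3.63, 1.79 and 6.01 per kb.

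**Figure D3:**
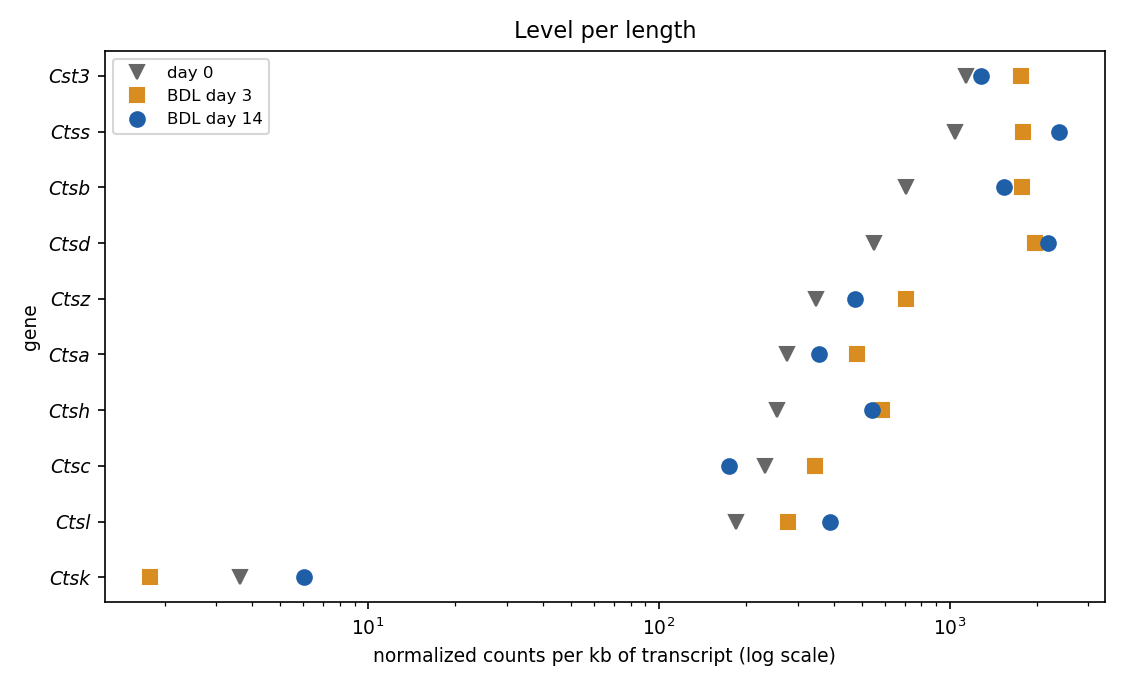
Group means of the 10 genes in normalized counts per kb of the longest well-supported coding transcript, on a log axis, for day 0 (triangles), BDL day 3 (squares) and BDL day 14 (circles), with genes ordered by their day 0 level. *Cst3* (1138 per kb) and *Ctss* (1048) are close together at the top at day 0, and *Ctss* (2384) and *Ctsd* (2186) at BDL day 14, while *Ctsk* stays at 6.01 or below.

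Genes that carry cathepsins to the lysosome or activate them were more often higher than lower after BDL. Of 9 such genes, 6 were higher and 1 lower at BDL day 3, and 5 higher and 1 lower at BDL day 14, with median log2 ratios of 0.74 and 0.97. For this list and those that follow, the shares over all genes kept were 19.2% higher and 29.2% lower at BDL day 3. At BDL day 14 they were 21.2% and 28.8%. *Lgmn*, for legumain, the protease that processes several cathepsins, had means of 1470, 4000 and 2890 normalized counts with no overlap with day 0 at either time. The same held for *M6pr*, the cation-dependent mannose 6-phosphate receptor, at 131, 275 and 257. *Psap*, for prosaposin, which binds procathepsin D, had means of 1300, 2980 and 4850, and no overlap at BDL day 14. *Sort1*, a sorting receptor that can replace the mannose 6-phosphate route, was lower at BDL day 3 and higher at BDL day 14, with means of 15.0, 4.93 and 40.7.

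The other hydrolases of the lysosome were also more often higher than lower. Of 28, 18 were higher and 0 lower at BDL day 3, 12 of the 18 with no overlap, against 3.31% of all genes. At BDL day 14, 17 were higher, 10 of them with no overlap, against 3.20% of all genes. One gene, *Pla2g15*, was lower at BDL day 14, with means of 197, 191 and 78.1. The median log2 ratios were 0.87 and 0.83, beside 0.79 and 0.90 for the 10 genes. *Gla*, for alpha-galactosidase A, had means of 8.90, 47.8 and 67.9 normalized counts, and *Gusb*, for beta-glucuronidase, 55.2, 213 and 214, both with no overlap with day 0 at either time. *Neu1*, whose product forms a complex with cathepsin A, had means of 75.2, 134 and 79.3, with no overlap with day 0 at BDL day 3. *Glb1*, for the beta-galactosidase of the same complex, had means of 52.7, 67.7 and 56.3. It was under 1.5-fold at both times, with an overlap with day 0 possible. The CACGTG core was found in the promoters of 6 of the 22 hydrolase genes with a window, and TCACGTGA in 2.

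The factors that bind this core, and are known to control lysosomal genes, were measured too. Of the 4 genes of the MiT/TFE group, 0 were higher or lower at BDL day 3, while at BDL day 14 *Mitf* was higher and *Tfec* lower by more than 1.5-fold, with an overlap possible in both. *Tfeb* had means of 22.6, 24.5 and 21.6 normalized counts, *Tfe3* 36.5, 52.0 and 42.0, *Mitf* 10.3, 12.2 and 15.6, and *Tfec* 78.6, 62.1 and 35.7. These are mRNA levels, and the activity of these factors is set largely by their location in the cell.

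**Figure D4:**
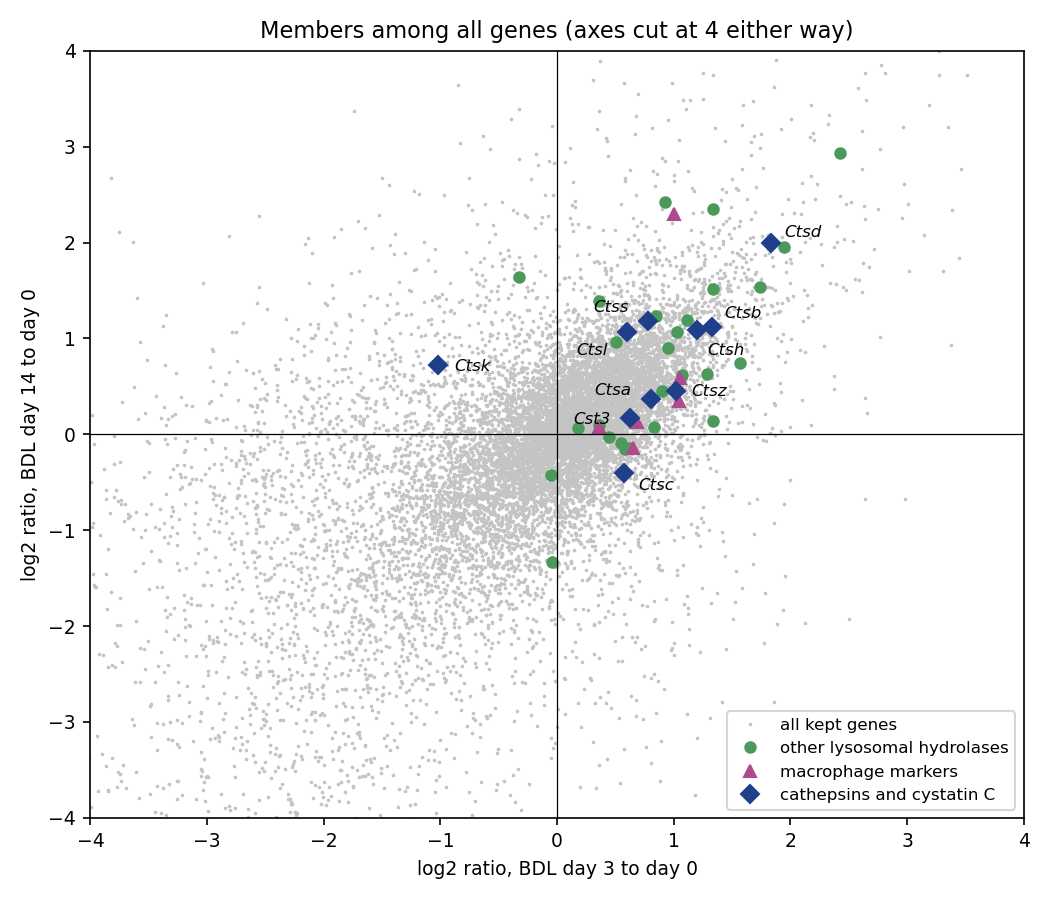
Log2 ratio to day 0 at BDL day 3 (horizontal axis) and BDL day 14 (vertical axis) for all genes kept (grey), 28 other lysosomal hydrolases (circles), 6 macrophage markers (triangles) and the 10 genes (diamonds, named). Both axes use the same day 0 means and end at 4 either way, leaving 535 genes outside, and 8 of the 10 diamonds lie right of and above 0, with *Ctsk* to the left and *Ctsc* below.

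Other inhibitors of cathepsins were low, with few exceptions. Of 12 found, 10 were kept, 2 of them higher and 4 lower at BDL day 3, against 19.2% and 29.2% of all genes. At BDL day 14, 2 were higher and 6 lower, against 21.2% and 28.8% of all genes. The shares of higher genes were thus near those of all genes. *Cstb*, for cystatin B, the inhibitor of cathepsins inside the cell, had means of 92.2, 231 and 198 normalized counts (log2 ratios to day 0 of 1.33 and 1.10). *Serpinb6a*, for a serpin of the cytosol, had means of 201, 446 and 231. An overlap with day 0 was possible for both.

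Genes tied to the tasks of single cathepsins did not all follow them. Of the 7 genes of class II presentation, where cathepsin S acts, 1 was higher and 1 lower at BDL day 3, against 19.2% and 29.2% of all genes. At BDL day 14, 5 were higher, against 21.2% of all genes. The median log2 ratios of the 7 genes were -0.26 and 0.94. *Cd74*, which encodes the invariant chain, had means of 975, 731 and 1870 normalized counts, and *H2-Eb1* 349, 246 and 1020. An overlap with day 0 was possible for all 7 genes. Of the proenzymes that cathepsin C activates, 4 were kept, all 4 lower at BDL day 3, and 1 higher and 3 lower at BDL day 14. *Gzma*, for granzyme A, had means of 33.7, 8.25 and 2.04. An overlap with day 0 was possible for all 4 at both times. Elastin and collagen I, substrates of cathepsins S and K, were lower in all 3 genes at both times, and *Col1a2* had means of 255, 2.85 and 25.2. The pooled CVs of the 3 genes were 103% or more. Only *Col1a2* at BDL day 3 had no overlap with day 0.

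Macrophage markers were compared with these genes. Of 6 macrophage markers, 5 were higher at BDL day 3, and at BDL day 14 only *Lyz2* passed 1.5-fold. Their sums were 4720, 8721 and 13796 normalized counts, but without *Lyz2* (2280, 4560 and 11200) the other 5 came to 2440, 4161 and 2596. *Cd68*, which encodes a lysosomal membrane protein of macrophages, had means of 508, 1050 and 646. *Ctsd* over *Cd68* went from 2.30 at day 0 to 3.98 and 7.20 at BDL days 3 and 14, and the sum of the 10 genes over the 5 markers other than *Lyz2* from 3.95 to 5.14 and 7.73. The 10 genes themselves summed to 9644, 21376 and 20067 normalized counts. Over all 6 markers their ratio rose at BDL day 3 and fell below that of day 0 at BDL day 14. The direction at BDL day 14 thus depends on whether *Lyz2* is included. The sum of 5 markers of Kupffer cells, the resident macrophages of the liver, was 9212, 20869 and 1278, with 4 higher at BDL day 3 and 5 lower at BDL day 14. Of 6 markers of recruited macrophages, 2 were higher and 2 lower at BDL day 3 and 5 higher and 1 lower at BDL day 14, summing to 564, 659 and 2988. One of them, *Spp1*, is also counted as a cholangiocyte marker and had means of 459, 175 and 792, and the other 5 summed to 105, 484 and 2196. Higher levels per cell and a larger share of cells of a type cannot be told apart in these bulk libraries, and the part of either in the cathepsin levels was not tested.

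The other markers were checked against the labelled cell type, the *Prom1* lineage of hepatic progenitors. Of the cholangiocyte and progenitor markers, *Spp1* had the highest means, given above, and the other 6 kept summed to 61.6, 27.3 and 37.5 normalized counts, with *Prom1* at 6.66, 0.956 and 1.76 and *Krt19* at 21.5, 12.7 and 14.3. Of all 7 kept, 7 were lower at BDL day 3, and 5 lower and 1 (*Spp1*) higher at BDL day 14, and their sums were 521, 202 and 830. Apart from *Spp1*, these markers summed far below the 5 Kupffer cell markers (9212, 20869 and 1278) in every group. The markers of the labelled lineage were thus not the main ones in these libraries. Which cells the cathepsin levels came from was not tested. Hepatocyte markers summed to 3313, 903 and 364, with 5 of 6 lower at BDL day 3 and 6 of 6 at BDL day 14, and all 7 mesenchymal markers were lower at both times, summing to 1031, 25.3 and 96.5. The 5 sinusoidal endothelial markers were lower at BDL day 3 (sums of 675, 262 and 782), and 1 was higher and 1 lower at BDL day 14. The markers of neutrophils (4 kept, sums of 440, 190 and 119), T and NK cells (5, sums of 98.4, 22.5 and 4.91) and B cells (3, sums of 160, 46.9 and 20.9) were lower in all genes kept at both times. For these and the endothelial markers an overlap with day 0 was possible in every gene kept at BDL day 3. At BDL day 14 it was possible in all but 2 T and NK cell markers. Of 4 dendritic cell markers, 1 was higher and 3 lower at BDL day 3, and 3 higher and 1 lower at BDL day 14, with sums of 17.4, 30.6 and 73.8. *Itgax*, also expressed by macrophages, made up most of the last 2 sums (6.71, 27.0 and 65.5), and the other 3 summed to 10.7, 3.64 and 8.35.

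Genes of like level and like ratios were looked up for 3 of the genes, by the distance between their pairs of log2 ratios to day 0 among genes with an overall mean within 2-fold. Nearest to *Ctsb*, among 26 candidates, was *Fth1*, for the ferritin heavy chain, at a distance of 0.179 on the log2 scale (means of 2290, 5570 and 4420 normalized counts), followed by *Ftl1* at 0.717 and *Psap* at 0.789. Nearest to *Cst3* among 129 candidates were *Trf* at 0.145 and *Ppia* at 0.152. Nearest to *Ctsk* among 4081 candidates were *Rad1*, *Gypc* and *Mdm1*, at 0.0816 to 0.137. Each likeness rests on 3 group means.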

How the data were processed

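GFP(+) cells were sorted by FACS and their mRNA was sequenced. The authors trimmed the reads on quality and length, aligned them with STAR (2.6.1d in the submitters' processing notes) to mm10, quantified them on GENCODE M18 and applied upper quartile normalization in Partek Flow. The deposited table holds signal values, namely the normalized counts as least squares means per group, their arithmetic mean and geometric mean over the libraries, and the value of whichever library was highest. It also holds the authors' p-values, FDR, ratios, log2 ratios, fold changes and 95% limits, which were not used. No column holds the values of a named library.

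Repeated symbols were reduced to their first listing, which left 16969 of 16971. A gene was kept if its normalized counts over the 10 libraries added up to 10 or more (12889 genes). Log2 ratios of group means were computed without a pseudocount, and a gene was called past 1.5-fold, the minimum of the study. No p-value could be computed. Group sizes of 3, 3 and 4 returned the overall mean to within 0.469% for 99% of genes, where the other sizes tried, up to 12 libraries in all, missed it by 9.44% or more. The possible library ranges, the no-overlap rule and the pooled CV (7 degrees of freedom) follow from the rounded means, the geometric mean and the highest library. They were added after the data were seen and were checked on simulated libraries, in which few genes were changed, all of them at BDL day 3 only. There the no-overlap rule made 0 wrong calls. It found only 10%, 2.4% and 13.1% of the truly separate genes in the 3 comparisons, in the order used above. No gene was changed between BDL day 14 and day 0, so the 2.4% concerns separations by chance. These shares do not give the share found among genes with a real change. A possible overlap is therefore not read as a sign that libraries did overlap. The simulated spread stayed below the pooled CV of variable genes such as *Ctsk*. The ranges let 1 group hold all of the spread, so they are wide. A mean of up to 4 times the lowest mean of its group was read as the floor, and no fold is given against it. In the list counts, a gene above the floor at day 0 and at the floor after BDL was still counted as lower.

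Every gene of interest is named. From each gene list at most 4 are named, by the largest or smallest log2 ratio against day 0 or by a tie of function to a cathepsin. *Glb1* is named beyond these among the other lysosomal hydrolases. The 3 nearest genes are given for *Ctsb* and *Ctsk* and the nearest 2 for *Cst3*, whose next one is not reported here. The members and lists were chosen with earlier results of these data known. Positions are those of the table, and they matched GENCODE M21 for 99.9% of the symbols that release shares with it. Promoters are from RefSeq. Python 3.11.15, numpy 2.4.6, pandas 2.3.3 and matplotlib 3.10.9 were used. Alternatives were no filter, an overall mean of at least 10, a fold of 2, a pseudocount of 1, median-ratio scaling, quantile normalization, and leaving out the highest library of each gene. The last was done only where a single group can have held that library. For *Ctsb*, *Ctsd*, *Ctsh* and *Cst3* either BDL group could have held it. Nothing was left out for these 4 genes, and their values in this setting are the main ones.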

Additional observations from a re-analysis of the deposited data

How the results depend on the processing

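Of 207 values of the 10 genes' log2 ratios under the alternatives, 187 kept their direction and their side of the limit, and 0 called ratios changed sign. Much of this was fixed in advance. The 30 values with no filter and the 27 with an overall mean of at least 10 cannot differ from the main ones. A fold of 2 moves only the limit. Under quantile normalization 18 values stayed the same, 5 were weaker, 4 stronger and 3 turned sign. A fold of 2 left 4 genes higher at BDL day 3 against day 0 and 0 lower at BDL day 14 against BDL day 3. With an overall mean of at least 10, which removes *Ctsk*, 0 were lower at BDL day 3 against day 0 and 0 higher at BDL day 14 against BDL day 3. Counting only genes with no overlap left 5 higher and 0 lower at BDL day 3 against day 0, and 0 either way at BDL day 14 against BDL day 3. Quantile normalization of the group means moved the median log2 ratio of all genes at BDL day 3 from -0.02 to 0.11. It left 4 of the 10 genes higher at BDL day 3 against day 0 and 0 lower, and gave 1 lower at BDL day 14 against day 0 (*Ctsc* at -0.67) and 4 higher at BDL day 14 against BDL day 3 (*Ctsd* at 1.28, *Ctss* at 1.06, *Ctsl* at 0.61 and *Ctsk* at 1.46). Under it the BDL day 3 log2 ratio was 0.38 for *Ctsa*, 0.17 for *Ctsl*, 0.36 for *Ctss*, 0.16 for *Cst3* and -0.35 for *Ctsk*, and 3 uncalled ratios turned sign, those of *Ctsa* (-0.01) and *Cst3* (-0.12) at BDL day 14 against day 0 and of *Ctsb* (0.14) at BDL day 14 against BDL day 3. The cause was not tested. Under median-ratio scaling *Ctsc* passed the limit at BDL day 3 with 0.60. No paired analysis was possible because the table gives only group means, and for the same reason no library other than the highest of each gene could be left out. Depth per library is unknown, which limits low genes such as *Ctsk* most.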

Other observations

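Other cathepsins were at low levels in these cells. Of 6 found, 5 were kept. *Ctsj*, at the floor at day 0 and BDL day 3 (0.128 and 0.224 normalized counts) and at 3.27 at BDL day 14, was left out of the counts since its day 0 mean, the base of the ratio, was at the floor. Of the other 4, *Ctsf* was higher and *Ctse* and *Ctsw* lower at BDL day 3, and *Ctsf* and *Ctsw* were lower at BDL day 14. *Ctse*, for the aspartic protease cathepsin E, had means of 4.86 normalized counts at day 0, with 0.424 and 4.64 at BDL days 3 and 14, and no library of BDL day 3 overlapped with either other group. *Ctsf*, for cathepsin F, had means of 20.4, 53.1 and 13.1, with no overlap between the BDL groups. *Ctsw*, a cathepsin of cytotoxic lymphocytes, had means of 10.3, 3.34 and 0.885, and *Ctso* 29.1, 35.6 and 26.4.

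*Ctla2a* and *Ctla2b*, whose products resemble the propeptide of cathepsins and inhibit them, moved in opposite directions. *Ctla2a* had means of 15.7, 12.4 and 77.5 normalized counts, and *Ctla2b* 129, 173 and 18.5, with no overlap between BDL day 14 and either other group for *Ctla2b*. The genes are close copies of each other, so the division of reads between them is uncertain. Their summed means were 145 at day 0, with 185 and 96.0 at BDL days 3 and 14. Whether the division of reads differed between libraries was not tested.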
